A study of Arabidopsis thaliana with 57 samples.

Results

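The libraries described here came from hdp1-1 mutants of Arabidopsis thaliana that carried the ARE//AGe transgene cassette, and they were divided by the scored form of the flowers. All batch B rows of the deposited read table labelled hdp1-1_ARE//AGe were taken, which gave 8 of the 57 strand-specific RNA libraries: 2 from rMf flowers (replicates 2 and 3), 3 from sMf flowers and 3 from Wt flowers. They were set against 3 libraries of hdp1-1 with Wt flowers and no cassette, which share the mutation, and against 3 libraries of Col with ARE//AGe and Wt flowers, which share the cassette. Col with Wt flowers and no cassette (3 libraries) and hdp2-1 with ARE//AGe (9 libraries, 3 each from rMf, sMf and Wt flowers) were used where a change with the cassette or with phenotype had to be compared between genotypes. All of these libraries belong to batch B and were made from young flowers. The labels give the phenotypes as Wt, sMf and rMf without spelling them out, and the names are used here as they stand. Per the labels, each replicate with a cassette was 1 RNA pool from several transformed lines of 1 phenotype. For these libraries p-values measure the spread between pools and not between single lines. The libraries without a cassette carry no transgene and are not pools of transformed lines. In edgeR's test this spread was estimated over all 57 libraries, and not from the compared groups alone. HDP1 itself has no entry in the table, and the hdp1-1 label could therefore not be checked against its transcript.

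AGAMOUS (AG, AT4G18960) encodes the MADS-box transcription factor that specifies stamens and carpels and ends the growth of the floral meristem. Its activating sequences lie largely in the second intron, which is bound by LEAFY and WUSCHEL and is widely used as a floral enhancer in transgenes. Such a sequence can be silenced by RNA-directed DNA methylation, in which noncoding transcripts of the target and small interfering RNAs guide the methylation of DNA. HDP1 and HDP2 are transposase-derived and DNA-binding partners in a complex with the histone acetyltransferase IDM1 that favours active DNA demethylation, and so they work against silencing. According to the series title, ARE protects a regulatory sequence against this kind of silencing.

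Reads were counted on each strand over a pair of regions at AG, on chromosome 4 of TAIR10. The enhancer region, AGe, spans chr4:10384147-10387145 (2999 bp, 28.6% GC) and is intron 2 of 1 of the 4 annotated AG transcripts. In the other 3 transcripts a 90 bp exon lies within it, from 10386982 to 10387071. This stretch is shown because a sense read over it can be spliced AG mRNA, whereas the rest of AGe is intronic. The sequence is from RefSeq (TAIR10.1), chr4:10386942-10387111, plus strand, with the exon in capitals.
AGe exon window: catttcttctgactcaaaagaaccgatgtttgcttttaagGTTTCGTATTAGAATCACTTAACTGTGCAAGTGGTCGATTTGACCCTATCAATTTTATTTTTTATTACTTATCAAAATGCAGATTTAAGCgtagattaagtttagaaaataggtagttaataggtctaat

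The promoter region, AGp, spans chr4:10380701-10382800 (2100 bp, 28.6% GC) and is intergenic. It stops 55 bases short of the annotated start of AG at 10382856, so a sense read in it lies outside the annotated AG transcripts. The header of the table also names this column M2 and does not say for which libraries, and a promoter read below means a read of that column. The end of the counted region is shown to mark how close it comes to the gene. The sequence is from RefSeq (TAIR10.1), chr4:10382701-10382855, plus strand, with the counted bases in capitals and the bases up to the start of AG in lower case.
AGp end window: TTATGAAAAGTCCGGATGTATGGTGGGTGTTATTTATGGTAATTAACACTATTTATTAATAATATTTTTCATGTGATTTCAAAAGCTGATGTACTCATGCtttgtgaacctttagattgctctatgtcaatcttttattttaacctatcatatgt

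AG is on the plus strand, and sense below means the plus strand. A cassette copy and the gene's own copy give reads at the same coordinates, and the sources used here do not give the orientation of AGe inside the cassette. No window of 50 bases from either region (0 of 2950 in AGe and 0 of 2051 in AGp) recurred elsewhere in the TAIR10.1 genome on either strand.

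The 8 libraries held 17737391 to 46267612 uniquely mapped reads, and 146 to 611 reads per library were counted in AGe and 10 to 39 in the promoter region. Whether the counted reads include multiply mapped ones is not stated. Their mapped reads were split unevenly between unique and multiple alignments. Multiply mapped reads made up 33.1% and 6.46% of mapped reads in rMf replicates 2 and 3, 36.5%, 28.7% and 28.1% in sMf replicates 1 to 3, and 12.8%, 24.3% and 30.9% in Wt replicates 1 to 3. They made up 10.3% to 13.7% in hdp1-1 without the cassette, 10.8% to 16.3% in Col with ARE//AGe and 7.71% to 16.7% in hdp2-1 with ARE//AGe. Thus 6 of the 8 libraries were above 20%, and rMf replicate 3 and Wt replicate 1 were not. The share averaged 25.1% ± 10.3 (SD, n = 8) in the 8 libraries and 10.9% ± 3.55 (SD, n = 9) in hdp2-1 with ARE//AGe (two-sided exact permutation test, p = 0.00304, 0.0304 after Benjamini-Hochberg adjustment over 10 comparisons). The corresponding exact tests against hdp1-1 without the cassette (p = 0.0970) and Col with ARE//AGe (p = 0.109) did not pass. Without rMf replicate 3 the first of these gave an exact p of 0.0333. A library size of uniquely mapped reads therefore gives these libraries higher levels than one of all mapped reads, and the calls are given with both. A level is a count divided by the library size and multiplied by 1000000. With uniquely mapped reads it is written RPM, and with all mapped reads RPMM.

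**Figure D1:**
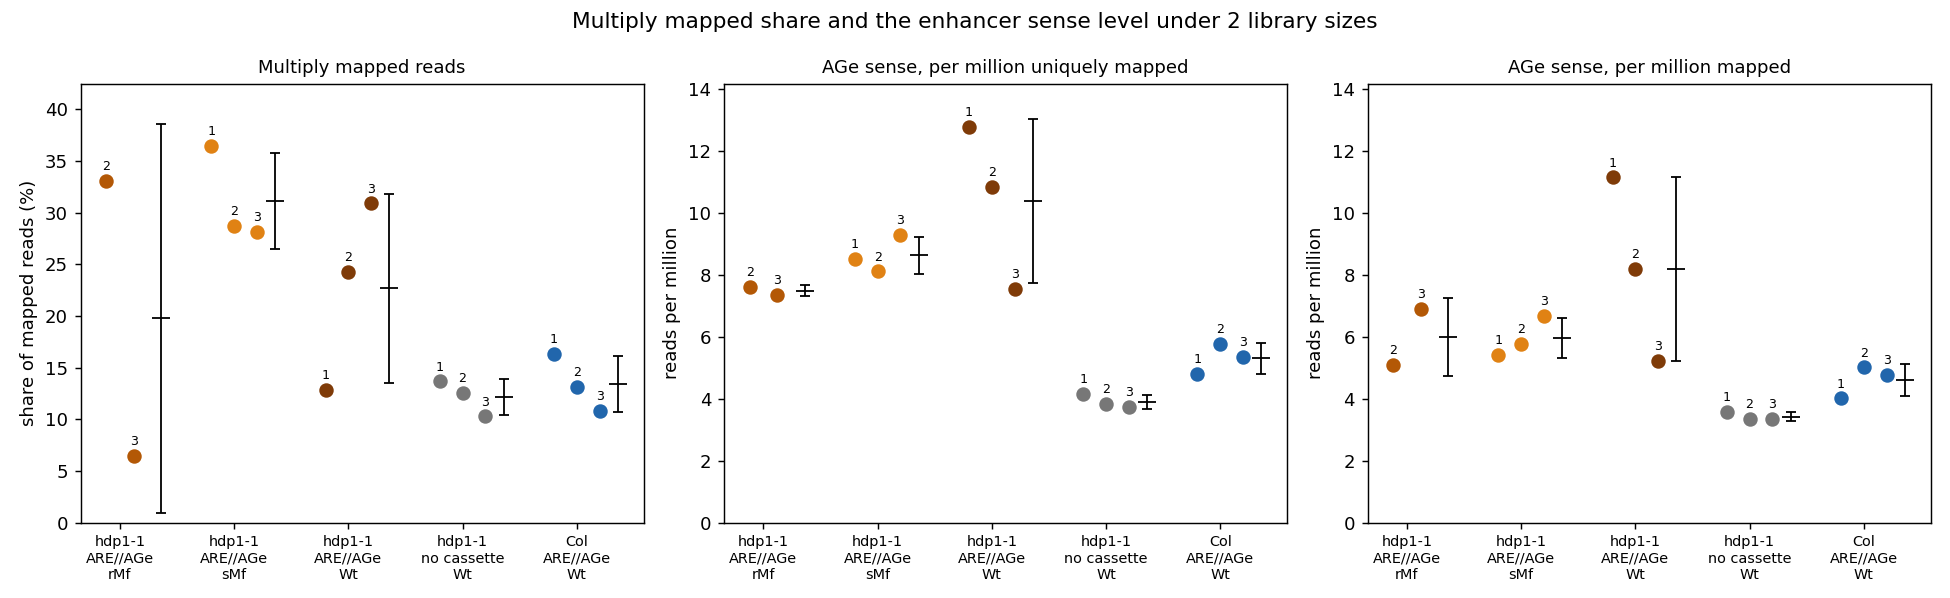
Multiply mapped reads as a percentage of mapped reads (left), and AGe sense reads in RPM of uniquely mapped reads (middle) and RPMM of all mapped reads (right). Points are libraries with their replicate number, and bars are the mean ± SD. The hdp1-1 ARE//AGe libraries above 20% drop most between the middle and right panels, and all 8 lie above hdp1-1 without the cassette in both.

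Sense reads over AGe were the most numerous class in all 8 libraries, and no difference between flower phenotypes passed the test. rMf flowers had 164 and 341 sense reads, which is 7.63 and 7.37 RPM. sMf flowers had 246, 196 and 221 reads, which is 8.52, 8.12 and 9.30 RPM. Wt flowers had 535, 318 and 134 reads, which is 12.8, 10.8 and 7.55 RPM. Both rMf libraries lay below all 3 sMf libraries, while the Wt libraries ran from among the lowest of the 8 to the highest. On all mapped reads the order of rMf and sMf was lost, with 5.11 and 6.89 RPMM in rMf, 5.42, 5.79 and 6.68 RPMM in sMf, and 11.2, 8.20 and 5.22 RPMM in Wt.

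The comparison of rMf with sMf asks whether these flower classes of hdp1-1 with ARE//AGe differ in reads of AG's regulatory sequences. AGe sense reads averaged 7.50 ± 0.185 RPM in rMf (SD, n = 2) and 8.65 ± 0.599 RPM in sMf (SD, n = 3). The log2 fold change was -0.21 ± 0.22 (SE, 95% interval -0.64 to 0.23, adjusted p = 0.700, edgeR's quasi-likelihood test, Benjamini-Hochberg adjusted over the 4 counts). With all mapped reads as library size it was 0.01 ± 0.24 (95% interval -0.48 to 0.50, adjusted p = 0.954), on the other side of 0. Of the 4 region-by-strand counts, 0 (0% of those tested) were called between rMf and sMf with either library size, and 0 had an unadjusted p under 0.05. DESeq2 and limma also called 0. An adjusted p under 0.05 is a call here.

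Against Wt flowers, at 10.4 ± 2.65 RPM (SD, n = 3), the AGe sense fold change in rMf was -0.48 ± 0.22 on the log2 scale (95% interval -0.92 to -0.04). It had an unadjusted p of 0.0325 and an adjusted p of 0.13 in edgeR's test. With all mapped reads it was -0.45 ± 0.24 (adjusted p = 0.286). The comparison rested on Wt replicate 3, the lowest Wt library, since without it the fold change was -0.66 and was called (adjusted p = 0.0190). In sMf against Wt the AGe sense fold change was -0.28 ± 0.19 (95% interval -0.66 to 0.11, adjusted p = 0.369) with unique reads. It was -0.47 ± 0.22 (95% interval -0.91 to -0.03, unadjusted p = 0.0374, adjusted p = 0.150) with all mapped reads. In both comparisons with Wt flowers edgeR called 0 of the 4 counts (0%) with either library size, and DESeq2 and limma called 0. An unadjusted p under 0.05 was found for 1 count in rMf against Wt with unique reads and for 1 count in sMf against Wt with all mapped reads. The 3 comparisons between phenotypes share libraries and are not independent of each other. RNA of whole young flowers was sequenced, and fewer cells of a type and less RNA per cell cannot be told apart.

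**Figure D2:**
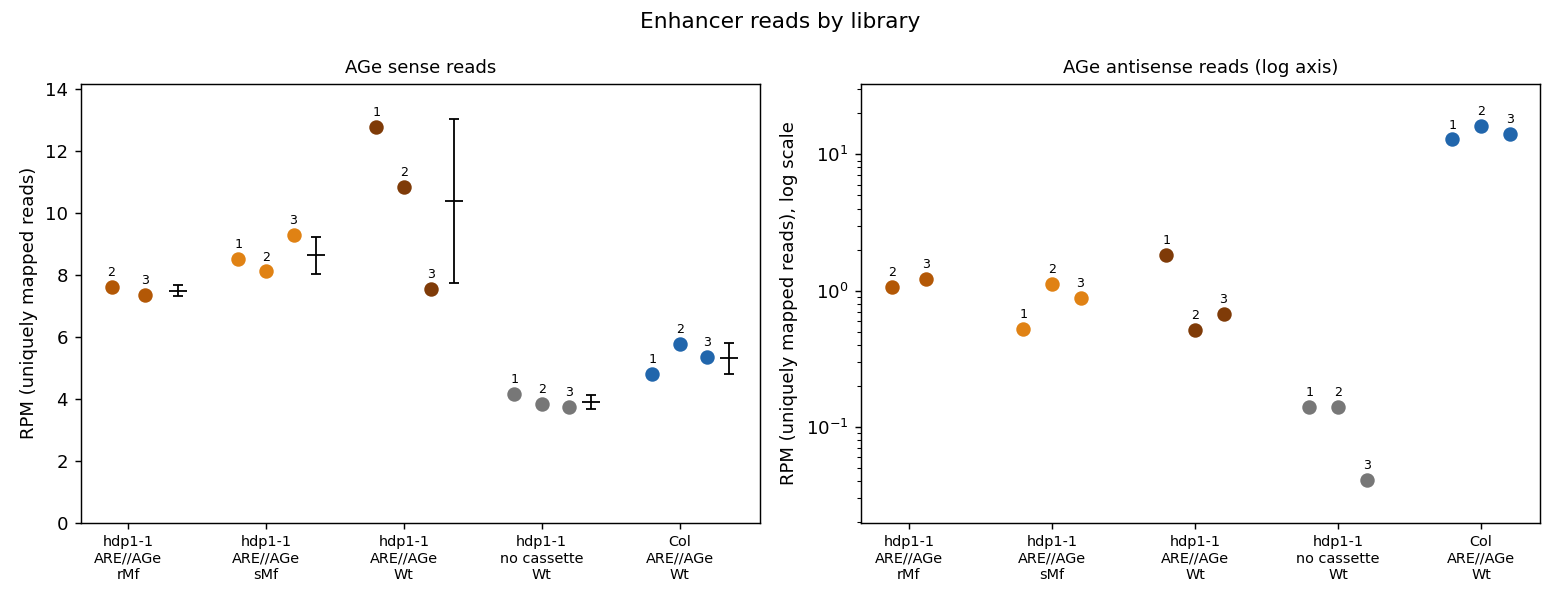
Enhancer reads by library, as RPM of uniquely mapped reads on a linear axis for sense (left, with mean ± SD) and on a log axis for antisense (right). Numbers are replicates. Sense reads lie between 7.37 and 12.8 RPM in the 8 hdp1-1 ARE//AGe libraries, and antisense reads lie between those of hdp1-1 without the cassette and those of Col with ARE//AGe.

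Antisense reads over AGe, which lie on the strand opposite to AG, were few in every hdp1-1 library and did not separate the phenotypes. rMf flowers had 23 and 56 such reads, which is 1.07 and 1.21 RPM. sMf flowers had 15, 27 and 21, which is 0.520, 1.12 and 0.883 RPM. Wt flowers had 76, 15 and 12, which is 1.82, 0.511 and 0.677 RPM. With unique reads Wt flowers held both the highest and the lowest of the 8 levels, and the rMf levels lay between them. On all mapped reads the lowest was sMf replicate 1 at 0.330 RPMM, below Wt replicate 2 at 0.387 RPMM. The log2 fold change was 0.47 ± 0.39 in rMf against sMf (95% interval -0.31 to 1.26, adjusted p = 0.700), and 0.70 ± 0.41 with all mapped reads (95% interval -0.13 to 1.54, adjusted p = 0.379). It was 0.10 ± 0.37 in rMf against Wt (95% interval -0.65 to 0.86) and -0.37 ± 0.36 in sMf against Wt (95% interval -1.09 to 0.35, adjusted p = 0.412 by edgeR), and with all mapped reads it was 0.14 ± 0.40 and -0.56 ± 0.38 in these comparisons. With unique reads Wt replicate 1 decided the direction of the fold change in sMf against Wt, which was 0.51 without it. In rMf against Wt the fold change was 0.99 without Wt replicate 1, and it turned to -0.23 without Wt replicate 2 and to -0.07 without Wt replicate 3.

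The share of AGe reads on the antisense strand needs no library size. It was 12.3% and 14.1% in the rMf libraries, 5.75%, 12.1% and 8.68% in the sMf libraries, and 12.4%, 4.50% and 8.22% in the Wt libraries. Both rMf shares lay above all 3 sMf shares, by a margin within counting error: the 95% Wilson interval of rMf replicate 2 was 8.34% to 17.8%, and that of sMf replicate 2 was 8.46% to 17.0%. Such intervals cover counting error only. The mean share was 13.2% ± 1.28 in rMf (SD, n = 2) and 8.84% ± 3.18 in sMf (SD, n = 3), with p = 0.2 in an exact permutation test, two-sided, the smallest that 10 splits allow. Against the 8.39% ± 3.97 of Wt flowers (SD, n = 3) the exact p was 0.4 for rMf and 0.8 for sMf, and 3 libraries against 3 cannot go below 0.1.

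Antisense reads were also set beside the multiply mapped share. rMf replicate 3 and Wt replicate 1, at most 20% multiply mapped, ranked 2 and 1 among the 8 in antisense RPM and 1 and 2 in antisense share. Their antisense shares were 14.1% and 12.4%, while the 6 libraries above 20% had 4.50% to 12.3%. In order of rising multiply mapped share, from 24.3% to 36.5%, these 6 had antisense shares of 4.50%, 8.68%, 12.1%, 8.22%, 12.3% and 5.75%. They were, in that order, Wt replicate 2, sMf replicate 3, sMf replicate 2, Wt replicate 3, rMf replicate 2 and sMf replicate 1. rMf replicate 3 and Wt replicate 1 were also the deepest of the 8, at 46267612 and 41816088 uniquely mapped reads. For AGe sense reads these libraries ranked 8 and 1 with unique reads, and 3 and 1 with all mapped reads. The parts of mapping and of depth in the antisense level were not tested.

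**Figure D3:**
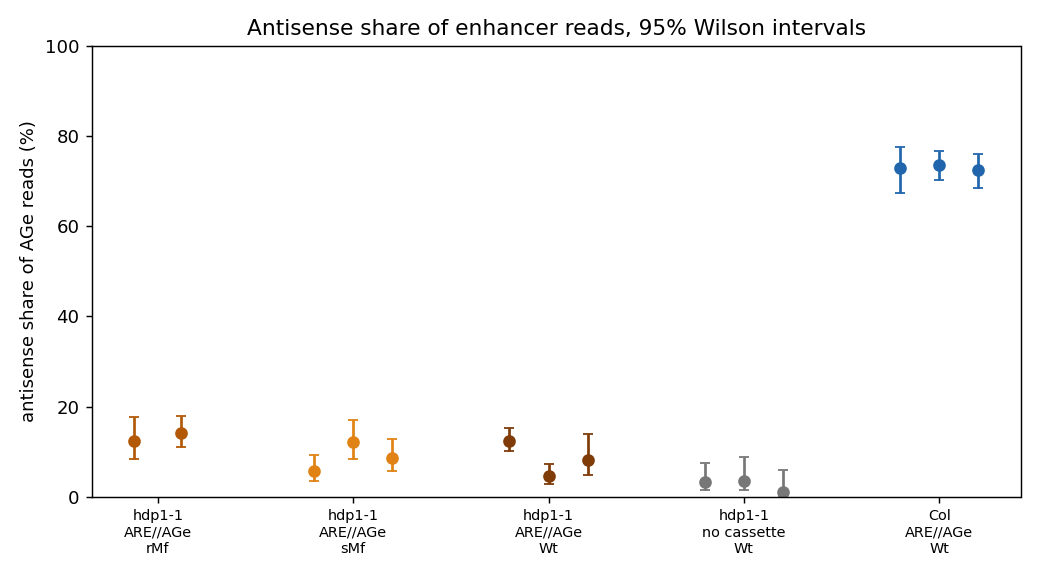
Percentage of AGe reads on the antisense strand in each library, with 95% Wilson intervals that cover counting error only. The 8 hdp1-1 ARE//AGe libraries lie at 4.50% to 14.1%, above hdp1-1 without the cassette (1.08% to 3.54%) and far below Col with ARE//AGe of batch B (72.4% to 73.6%).

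Promoter reads occurred in all 8 libraries on both strands and did not differ detectably between phenotypes at this depth. On the sense strand there were 5 and 20 reads in rMf, 4, 10 and 6 in sMf, and 14, 7 and 3 in Wt. On the antisense strand there were 8 and 19 in rMf, 10, 7 and 15 in sMf, and 10, 6 and 7 in Wt. The strands were thus nearly balanced, with 69 sense and 82 antisense reads in all, whereas AGe held 2155 sense and 245 antisense reads. In rMf against sMf the edgeR log2 fold change was 0.45 ± 0.77 for promoter sense reads (95% interval -1.13 to 2.02) and -0.08 ± 0.50 for antisense reads (95% interval -1.09 to 0.93). In rMf against Wt these were 0.43 ± 0.75 and 0.59 ± 0.52, and in sMf against Wt they were -0.02 ± 0.74 and 0.67 ± 0.49. With all mapped reads the sense and antisense values were 0.70 ± 0.80 and 0.17 ± 0.51 in rMf against sMf, 0.50 ± 0.78 and 0.65 ± 0.53 in rMf against Wt, and -0.20 ± 0.78 and 0.47 ± 0.50 in sMf against Wt. Both strands together came to 0.605 and 0.843 RPM in rMf, 0.485, 0.704 and 0.883 RPM in sMf, and 0.574, 0.443 and 0.564 RPM in Wt. The rMf levels lay above the Wt levels with unique reads (two-sided exact permutation p = 0.2, the smallest possible), but on all mapped reads the lower rMf library, at 0.405 RPMM, lay within the Wt range of 0.335 to 0.500 RPMM.

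**Figure D4:**
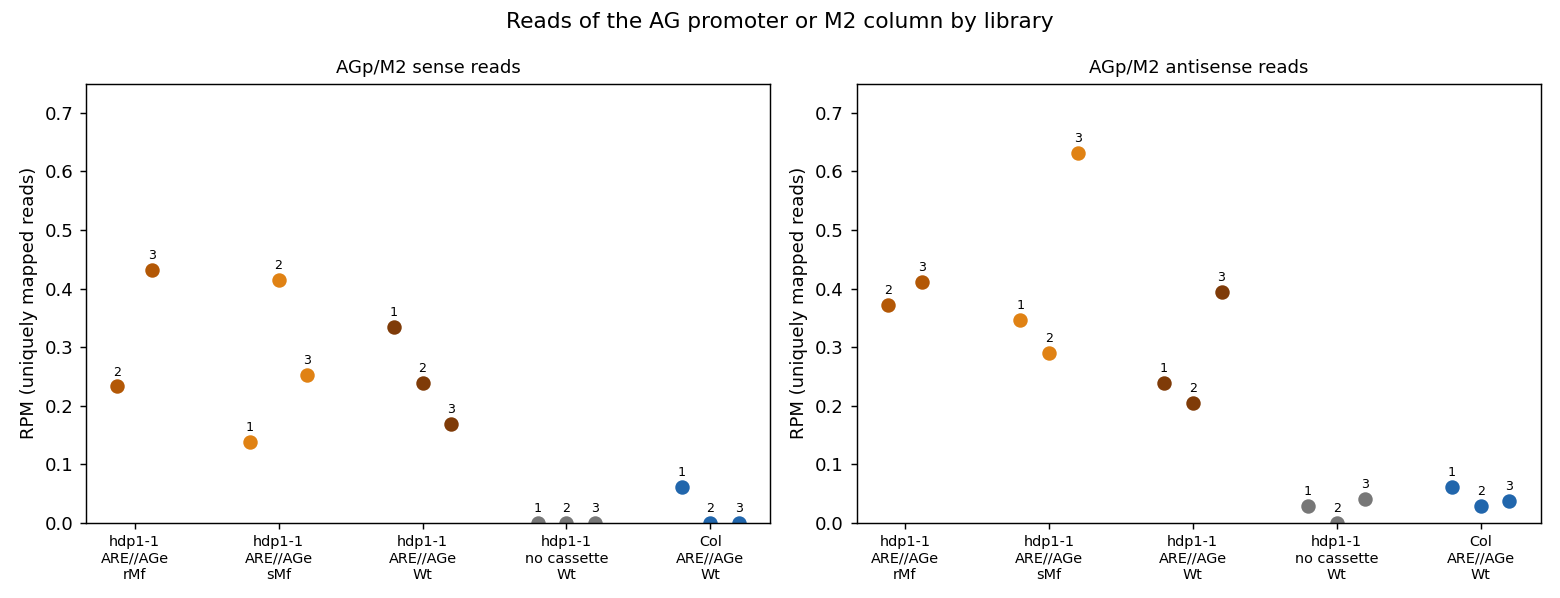
Reads of the AG promoter or M2 column by library, sense (left) and antisense (right), in RPM of uniquely mapped reads. Numbers are replicates. The hdp1-1 ARE//AGe libraries lie at 0.139 to 0.432 RPM sense and 0.204 to 0.631 RPM antisense, above every library of hdp1-1 without the cassette and of Col with ARE//AGe.

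The comparison with hdp1-1 lacking the cassette asks what ARE//AGe adds within the mutant. Reads of all 4 kinds rose, in flowers of each phenotype. Sense reads over AGe were 7.37 to 12.8 RPM in the 8 libraries with the cassette, with a median of 8.32 RPM, against 4.15, 3.83 and 3.74 RPM in the 3 without it. The lowest library with the cassette was above the highest without it. Averages were 9.02 ± 1.91 RPM (SD, n = 8) and 3.90 ± 0.218 RPM (SD, n = 3), a 2.29-fold difference (log2 1.20 ± 0.17, adjusted p = 3.942e-08). It was 1.97-fold with all mapped reads (log2 0.97 ± 0.19, adjusted p = 1.801e-05). By phenotype it was 1.92-fold in rMf (log2 0.94 ± 0.22, adjusted p = 0.00013), 2.21-fold in sMf (log2 1.14 ± 0.20, adjusted p = 3.649e-06) and 2.68-fold in Wt. With all mapped reads the sense difference was 1.75-fold in rMf, 1.74-fold in sMf and 2.40-fold in Wt.

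Antisense reads over AGe also rose, from a base of very few reads. The 8 libraries had 12 to 76 antisense reads, and the 3 libraries without the cassette had 5, 4 and 1. Levels averaged 0.976 ± 0.433 RPM (SD, n = 8) with the cassette and 0.107 ± 0.0575 RPM (SD, n = 3) without it, with no overlap. The edgeR fold was 8.58 over the 8 libraries (log2 3.10 ± 0.45, adjusted p = 3.942e-08) and 7.47 with all mapped reads (log2 2.90 ± 0.47, adjusted p = 7.476e-07). It was 9.96 in rMf (log2 3.32 ± 0.52), 7.18 in sMf (log2 2.84 ± 0.52) and 9.28 in Wt (log2 3.21 ± 0.49). In Wt flowers the ratio of means was 9.36, and it was 5.55 without Wt replicate 1. The antisense share averaged 9.76% ± 3.49 (SD, n = 8) with the cassette and 2.63% ± 1.35 (SD, n = 3) without it. A two-sided exact permutation test gave p = 0.0121, the smallest that 8 libraries against 3 allow, and 0.0606 after adjustment over the 10 comparisons.

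Promoter reads were nearly absent without the cassette. Each of the 8 libraries had 10 to 39 promoter reads, 151 together, and the 3 libraries without the cassette held 2 in all, both antisense. Promoter sense reads were at least 10.9-fold higher in rMf, at least 7.71-fold in sMf and at least 7.99-fold in Wt, computed against a floor of 3 reads over the group without the cassette, where none was counted. Over all 8 libraries the sense bound was 8.75-fold, and 7.61-fold with all mapped reads. Leaving out replicate 1 of hdp1-1 without the cassette, the deepest of that group, lowered the bounds with unique reads to 6.53-fold, 4.61-fold and 4.78-fold, and to 5.23-fold over all 8. Promoter antisense reads over the 8 libraries were 15.6 times those without the cassette (95% counting interval 4.18 to 131). All 4 counts were called as higher (100% of the 4 tested) in rMf, sMf, Wt and the 8 libraries together, with either library size. For rMf and sMf the cassette and the phenotype differ together, because hdp1-1 without the cassette had Wt flowers, and their parts cannot be told apart.

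The comparison with Col carrying the same cassette asks how reads of the enhancer under ARE//AGe differ between the mutant and Col. Copy number and insertion sites of the cassette were not measured in either genotype. Antisense reads over AGe were lower in hdp1-1, at 0.511 to 1.82 RPM in the 8 libraries, against 12.9, 16.1 and 14.1 RPM in Col. In counts this is 12 to 76 antisense reads per hdp1-1 library and 209, 554 and 373 in the Col libraries. The edgeR log2 fold change was -3.85 ± 0.22 (adjusted p = 1.253e-20), or 14.4-fold lower, and 16.4-fold lower with all mapped reads (log2 -4.04 ± 0.25, adjusted p = 1.243e-19). Without hdp1-1 Wt replicate 1 the ratio of means was 16.8 in place of 14.7. The strand balance turned with it: 10.2% of AGe reads were antisense over the 8 hdp1-1 libraries together and 73.1% over the 3 Col libraries of batch B. In batch A, Col with the same cassette and Wt flowers had 12.4, 13.6 and 12.3 antisense RPM. Its antisense shares were 45.9%, 47.4% and 47.1%.

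Sense reads over AGe were higher in hdp1-1 with ARE//AGe, at 9.02 ± 1.91 RPM (SD, n = 8), against 4.80, 5.78 and 5.35 RPM in Col with ARE//AGe, and the groups did not overlap. The difference was 1.68-fold (log2 0.75 ± 0.17, adjusted p = 0.00011), and 1.46-fold with all mapped reads (log2 0.55 ± 0.19, adjusted p = 0.00603). This direction holds within batch B only. Col with ARE//AGe and Wt flowers in batch A had 14.6, 15.1 and 13.8 RPM, above all 8 hdp1-1 libraries. Promoter sense reads numbered 69 over the 8 libraries and 1 in Col, a ratio of 22.8 with a 95% counting interval of 3.96 to 914. Without Col replicate 1, which held that read, the bound was 6.01-fold. Promoter antisense reads numbered 82 and 3, a ratio of 9.04 (95% counting interval 2.99 to 44.7). All 4 counts differed (100%), 3 higher and 1 lower in hdp1-1, with both library sizes. The Col libraries had Wt flowers only, so in the pooled arm the mutation and the flower phenotype differ together. Among Wt flowers alone, AGe sense reads were 7.55 to 12.8 RPM in hdp1-1 and 4.80 to 5.78 RPM in Col. With all mapped reads they were 5.22 to 11.2 RPMM and 4.02 to 5.02 RPMM. Antisense reads in Wt flowers were 0.511 to 1.82 RPM in hdp1-1 and 12.9 to 16.1 RPM in Col. This contrast of Wt flowers was not tested.

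rMf flowers alone gave the same directions as the 8 libraries. AGe antisense reads were 1.07 and 1.21 RPM in rMf, 12.4-fold below Col with ARE//AGe (log2 -3.64 ± 0.36, adjusted p = 2.775e-12). AGe sense reads, at 7.63 and 7.37 RPM, were 1.41-fold above Col (log2 0.49 ± 0.22, 95% interval 0.05 to 0.93, adjusted p = 0.0298). With all mapped reads the sense levels were 5.11 and 6.89 RPMM in rMf against 4.02, 5.02 and 4.77 RPMM in Col, and the call was lost (log2 0.38 ± 0.24, 95% interval -0.11 to 0.87, adjusted p = 0.127). The sense call was also lost without either rMf library (adjusted p = 0.0929 without replicate 2 and 0.0710 without replicate 3), without Col replicate 1 (0.0835) and without Col replicate 3 (0.0513). Promoter sense reads were called in rMf against Col except without rMf replicate 3 (adjusted p = 0.0710 by edgeR). Thus 4 of 4 counts (100%) were called with unique reads and 3 of 4 (75.0%) with all mapped reads.

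The change with the cassette itself differed between hdp1-1 and Col within batch B. In hdp1-1 AGe sense reads were 9.02 ± 1.91 RPM with the cassette (SD, n = 8) and 3.90 ± 0.218 RPM without it, and in Col they were 5.31 ± 0.493 RPM with it and 7.87 ± 0.980 RPM without it (SD, n = 3 each). The difference between the 2 changes was 1.76 ± 0.26 on the log2 scale (adjusted p = 1.267e-07), and 1.61 ± 0.29 with all mapped reads (adjusted p = 7.917e-06). AGe antisense reads in Col were 14.3 ± 1.64 RPM with the cassette and 0.253 ± 0.0545 RPM without it, so the antisense increase was smaller in hdp1-1. This difference of changes was -2.67 ± 0.77 (adjusted p = 0.00232), and -2.80 ± 0.77 with all mapped reads (adjusted p = 0.00149). Both AGe counts were called (100% of the 2 reported), with p-values adjusted over all 4 counts. The promoter counts are not reported for this comparison, since Col had 0 promoter reads without the cassette and 4 with it, and a fitted change would depend on the prior count.

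hdp2-1 with ARE//AGe is a mutant of HDP1's partner with the same cassette and the same 3 phenotypes. AGe sense reads averaged 9.02 ± 1.91 RPM in hdp1-1 (SD, n = 8) and 8.99 ± 1.45 RPM in hdp2-1 (SD, n = 9), a log2 fold change of 0.00 within an interval of -0.23 to 0.23 (adjusted p = 0.983). AGe antisense reads ran from 0.511 to 1.82 RPM in hdp1-1 with a median of 0.977, and from 0.938 to 1.86 RPM in hdp2-1 with a median of 1.34. Their fold change was -0.46 ± 0.20 (95% interval -0.86 to -0.05), with an unadjusted p of 0.0271 and an adjusted p of 0.108. With unique reads 0 of the 4 counts (0%) were called, 1 at an unadjusted p under 0.05. DESeq2 called 0 and limma called 2. Promoter sense reads averaged 0.277 ± 0.108 RPM in hdp1-1 (SD, n = 8) and 0.469 ± 0.175 RPM in hdp2-1 (SD, n = 9), with a two-sided exact permutation p of 0.0150 and 0.0499 adjusted over the 10 comparisons, while edgeR's adjusted p was 0.177.

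The calls in this comparison depended on the library size, the libraries in the fit and the tool. With unique reads and only batch B in the edgeR fit, AGe antisense (log2 -0.46) and promoter sense (log2 -0.69) were called, each at an adjusted p of 0.0370. With all mapped reads 3 of the 4 counts (75.0%) were called, each lower in hdp1-1: AGe antisense at log2 -0.68 ± 0.22 (adjusted p = 0.0110), promoter sense at -0.92 ± 0.41 and promoter antisense at -0.61 ± 0.28 (adjusted p = 0.0444 for both). The antisense share, free of library size, averaged 9.76% ± 3.49 in hdp1-1 and 13.3% ± 2.41 in hdp2-1 (two-sided exact permutation p = 0.0286, 0.0954 adjusted over the 10 comparisons). With only the 2 hdp1-1 libraries at most 20% multiply mapped, the AGe antisense fold change against hdp2-1 was 0.12 with unique reads and 0.14 with all mapped reads. These 2 libraries, Wt replicate 1 and rMf replicate 3, ranked 1 and 2 of the 8 in antisense level, and neither had sMf flowers. A rise of the fold change was therefore fixed in advance, and this variant cannot decide the part of mapping. Without hdp1-1 Wt replicate 1 alone the antisense fold change was -0.73 and called (adjusted p = 0.00154). The multiply mapped share differed between the 2 genotypes, as given above, and its part in the antisense difference was not tested.

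The differences between flower phenotypes were also compared between the mutants. In hdp2-1 AGe sense reads were 9.39 ± 2.56 RPM in rMf, 8.79 ± 1.14 RPM in sMf and 8.78 ± 0.480 RPM in Wt (SD, n = 3 each). The change in rMf relative to Wt differed between hdp1-1 and hdp2-1 by -0.58 ± 0.29 on the log2 scale (95% interval -1.17 to 0.00, unadjusted p = 0.0507, adjusted p = 0.203). It was called without hdp1-1 Wt replicate 3 (-0.76, adjusted p = 0.0430) and without hdp2-1 rMf replicate 1 (-0.79, adjusted p = 0.0258). The change in sMf relative to Wt differed by -0.28 ± 0.27 (95% interval -0.83 to 0.27, adjusted p = 0.719). In each of these comparisons edgeR called 0 of the 4 counts (0%) with either library size, with 1 unadjusted p under 0.05, in rMf with all mapped reads. DESeq2 and limma called 0.

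**Figure D5:**
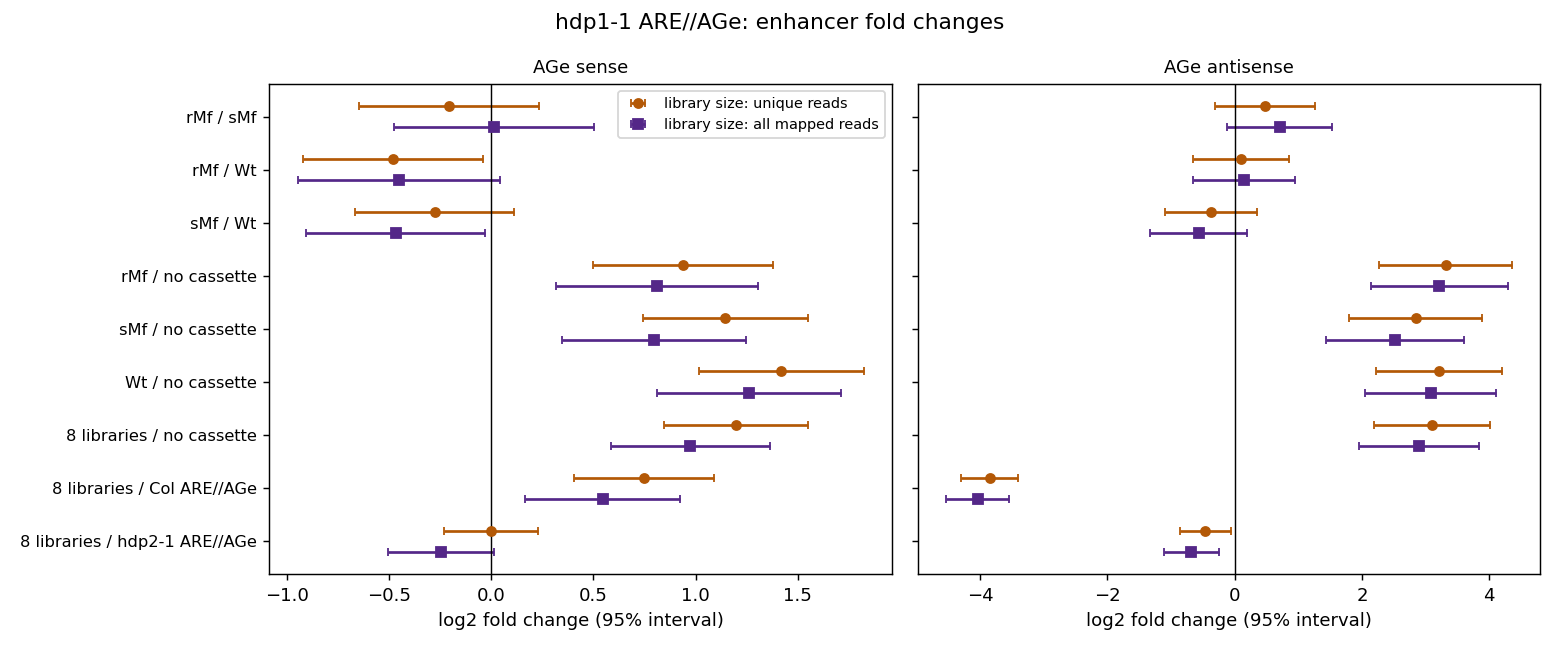
Log2 fold changes of AGe sense (left) and antisense reads (right) in 9 comparisons, with 95% intervals derived from the F statistics of edgeR's quasi-likelihood test. Circles use uniquely mapped reads and squares all mapped reads as library size. The intervals of the comparisons with no cassette and of the 8 libraries with Col ARE//AGe exclude 0 under both library sizes, while the phenotype intervals span 0 except AGe sense in rMf / Wt with unique reads and in sMf / Wt with all mapped reads.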

How the data were processed

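Strand-specific libraries of young flower RNA, depleted of ribosomal RNA per the labels' protocols, were analysed from raw read counts per region and strand that the authors deposited in 1 table, with uniquely and multiply mapped reads of each library. The submitters' processing notes name HISAT2, HTSeq 0.13.5 and the build TAIR10, without settings. The RPM values deposited by the authors equal count / uniquely mapped reads × 1000000 in every library. RPMM is the same on all mapped reads. The percent of reads mapped, also deposited, was not used in any test.

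All comparisons used edgeR 4.0.16 (R 4.3.3) quasi-likelihood tests on all 57 libraries in 20 groups, with unique reads as library size, a common dispersion of 0.0364 (biological coefficient of variation 19.1%), 37 residual degrees of freedom, a prior count of 0.125 and Benjamini-Hochberg adjustment over the 4 counts of a comparison. A pooled arm is the mean of its group means weighted by libraries. All 4 counts are named in every comparison, by rule, except the promoter counts in the difference of cassette changes between hdp1-1 and Col. Two-sided exact permutation tests over libraries used scipy 1.17.1. Scripts were tested on simulated data. Members, comparisons and alternatives were chosen with earlier results of these data known. Alternatives were other library sizes, prior counts, fits, tools (DESeq2 1.42.0, limma 3.58.1 on log2(RPM + 0.1)), poolings and left-out libraries. Replicate numbers were not used as pairs in the main fit: same-numbered libraries had correlated deviations above 0.1 in 6 of 17 pairs. Each correlation rested on 4 counts only, so this check cannot exclude pairing.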

Additional observations from a re-analysis of the deposited data

Results flagged for a closer look

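Within batch B, the change of AGe sense reads with ARE//AGe differed between hdp1-1 and Col by 1.76 on the log2 scale. The difference itself was tested in edgeR (adjusted p = 1.267e-07). All 8 hdp1-1 libraries with the cassette were above the 3 without it, and all 3 Col libraries of batch B with the cassette were below the 3 without it. Col with ARE//AGe in batch A had 14.6, 15.1 and 13.8 sense RPM, above all of these libraries. The lower sense level in Col with the cassette was therefore seen within batch B only. Batch A has no library labelled Col without a cassette, so the change could not be computed there. The change of AGe antisense reads with the cassette differed by -2.67 (adjusted p = 0.00232). Antisense reads were higher with the cassette in 8 of 8 hdp1-1 libraries and in 3 of 3 Col libraries of batch B. The antisense increase was smaller in hdp1-1.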

How the results depend on the processing

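Of 1631 alternative values for 103 results, 1525 were scored as unchanged. For fold changes and differences of means this meant the same direction and side of the threshold. For the number of counts called it meant a similar number. Exact tests of 2 or 3 libraries against 3 cannot go below 0.2 and 0.1, so their side of the threshold was fixed in advance. The total is therefore not a measure of robustness. In edgeR, all comparisons with hdp1-1 lacking the cassette, all of the 8 libraries with Col ARE//AGe, and both differences of changes against Col kept their direction and call under every alternative. No alternative used Col with ARE//AGe of batch A as the reference. Log2 fold changes that did not keep their direction or call are given next. In rMf against sMf, AGe sense was 0.01 with all mapped and 0.02 with total reads as library size, and promoter antisense was 0.17 and 0.18 (differences of mean sense levels 0.0393 and 0.0766). In rMf against Col ARE//AGe, AGe sense missed the threshold at 0.38 (mapped), 0.40 (total), 0.49 (only batch B in the fit) and 0.49 (adjustment over all comparisons). In sMf against Wt, promoter sense was 0.02 in a fit of the compared groups alone, 0.07 with DESeq2 and 0.04 with limma. Against hdp2-1, AGe antisense passed at -0.68 (mapped), -0.68 (total), -0.46 (batch B), -0.52 (limma) and -0.46 (only counts with a mean of at least 10), promoter sense at -0.92, -0.91, -0.69 (batch B) and -0.58 (limma), and promoter antisense at -0.61 and -0.60, so that 3, 3, 2 (batch B) and 2 (limma) counts were called in place of 0. There AGe sense was 0.00 with DESeq2, 0.01 with the pooled libraries as 1 group, and 0.11 or, with all mapped reads, 0.13 with only libraries at most 20% multiply mapped, where antisense was 0.12 and 0.14. The 2 libraries at most 20% multiply mapped had the highest antisense levels of the 8, so a rise of the antisense value was fixed in advance. The variant of these libraries with all mapped reads was chosen after seeing the data. Sense means then differed by -1.21 (mapped) and -1.11 (total) per 1000000 reads, and with at most 20% multiply mapped the antisense means differed by 0.146 RPM and the antisense shares by -0.0284 points. With those 2 libraries as the pooled arm, exact tests cannot go below 0.2: differences were 6.18 and 1.41 RPM (sense, antisense) and 10.6 points against no cassette, and 4.77 and -12.8 RPM and -59.7 points against Col ARE//AGe. The hdp1-1 and hdp2-1 changes with phenotype differed in promoter antisense reads for rMf by -0.04 (mapped), -0.05 (total), -0.02 (prior count 2), -0.14 (limma) and -0.00 with a replicate block, and in AGe antisense with limma by 0.10 (sMf) and 0.08 (rMf). With the replicate block the number of counts called was unchanged in all 13 comparisons, and AGe sense in rMf against sMf was -0.23. The cause of these shifts was not tested.

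Leaving out 1 library at a time, log2 fold changes ranged as follows. In sMf against Wt, AGe antisense ran from -0.71 to 0.51 and promoter sense from -0.47 to 0.33. In rMf against Wt, AGe sense ran from -0.66 to -0.30, AGe antisense from -0.23 to 0.99 and promoter sense from -0.18 to 0.76, with 0 to 1 counts called. In rMf against sMf, promoter sense ran from -0.17 to 0.90 and promoter antisense from -0.27 to 0.30. In rMf against Col ARE//AGe, AGe sense ran from 0.43 to 0.56 and promoter sense from 3.72 to 6.52, with 2 to 4 called. Against hdp2-1, AGe sense ran from -0.08 to 0.05 and antisense from -0.73 to -0.35, with 0 to 1 called. For the difference of phenotype changes from hdp2-1, sMf AGe antisense ran from -0.53 to 0.69 and promoter sense from -0.80 to 0.02. For rMf, AGe sense ran from -0.79 to -0.41, AGe antisense from -0.54 to 0.69, promoter sense from -0.39 to 0.57 and promoter antisense from -0.31 to 0.25, with 0 to 1 called. Differences of mean antisense RPM ran from -0.407 to 0.247 (sMf against Wt) and from -0.107 to 0.546 (rMf against Wt), and of antisense share from -1.48 to 2.48 points (sMf against Wt). Differences of multiply mapped share ran, in points, from -16.2 to 10.4 (rMf against Wt), -24.6 to 1.97 (rMf against sMf), -5.70 to 20.9 (rMf against no cassette), -6.96 to 19.6 (rMf against Col ARE//AGe) and 11.3 to 15.6 (8 libraries against no cassette).

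Depth limits the promoter counts most, at 3 to 20 reads per strand and library. With 2 rMf libraries, a group with 1 left out is assumed to vary like the others.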
